A study of Mus musculus with 8 samples.

Results

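The lysyl oxidases are the secreted copper enzymes that cross-link collagen and elastin, and their mRNA was measured in primary murine cardiac fibroblasts with and without IRF7 overexpression. The family was taken by gene symbol, Lox, Loxl1, Loxl2, Loxl3 and Loxl4, which gave 5 of the 22274 genes in the deposited table. All 5 passed the filter on low counts that left 13533 genes for testing. The 4 libraries labelled GFP and the 4 labelled OEIRF7 came from fibroblasts of mouse heart, and both groups were kept for 24 h in TGF-β at 5 ng/ml, so there was no group without TGF-β. The GFP group carried the empty vector and the OEIRF7 group an IRF7 vector. The study describes an adenovirus, for which its reagent list names the human gene under the CMV promoter with EGFP, whereas the deposited design text names an adeno-associated virus. Nothing in the labels ties the libraries to separate animals or cultures, and the p-values therefore measure the spread between these libraries, which may be technical.

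Lysyl oxidases oxidise the side chains of lysine and hydroxylysine in collagen and elastin to aldehydes, which then condense into covalent cross-links. These cross-links make the matrix stiff and resistant to breakdown, and in the heart they accompany the scarring that follows the conversion of fibroblasts to myofibroblasts. Lox and Loxl1 are made with a propeptide that has to be cleaved outside the cell, while Loxl2, Loxl3 and Loxl4 carry scavenger receptor cysteine-rich domains in its place. All members share a carboxy-terminal catalytic domain that holds copper through a cluster of histidines.

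The coding sequence of this copper-binding stretch is shown for 4 members because it is the part that makes them a family and because near-identical paralogs could share reads. Sequences are from GENCODE M21 transcripts (GRCm38), written 5′ to 3′ along the mRNA, with the histidine codons in capitals.
Loxl1: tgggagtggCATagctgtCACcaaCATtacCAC
Loxl2: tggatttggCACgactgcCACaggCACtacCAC
Loxl3: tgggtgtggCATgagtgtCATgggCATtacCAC
Loxl4: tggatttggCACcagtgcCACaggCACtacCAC

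Each stretch of 33 bases holds 4 histidine codons, and it starts at codon 476 of 607 in Loxl1, 622 of 776 in Loxl2, 602 of 754 in Loxl3 and 607 of 758 in Loxl4. The same motif was found once in Lox, at codon 280 of 411. In the 4 genes shown an intron interrupts the stretch after base 23, between exons 3 and 4 of Loxl1, exons 10 and 11 of Loxl2 and of Loxl3, and exons 11 and 12 of Loxl4. The coding exon pieces lie at chr9:58294359-58294381 and chr9:58293720-58293729 for Loxl1 (minus strand), at chr14:69682316-69682338 and chr14:69689028-69689037 for Loxl2 (plus strand), at chr6:83049995-83050017 and chr6:83050116-83050125 for Loxl3 (plus strand), and at chr19:42599877-42599899 and chr19:42598807-42598816 for Loxl4 (minus strand). Loxl2 and Loxl4 were identical at 31 of the 33 bases, and the other pairs at 21 to 25. Over their whole annotated transcripts the 5 members shared no string of 50 bases, and reads were 150 bases long. Shared strings of 25 bases were few, at most 8 in a pair (Lox and Loxl1).

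The 5 genes lie on 5 chromosomes of GRCm38. Lox (ENSMUSG00000024529) is on the minus strand of chromosome 18 from 52516067 to 52529867, and Loxl1 (ENSMUSG00000032334) is on the minus strand of chromosome 9 from 58287738 to 58313186. Loxl2 (ENSMUSG00000034205) is on the plus strand of chromosome 14 from 69609068 to 69695834, and Loxl3 (ENSMUSG00000000693) is on the plus strand of chromosome 6 from 83034173 to 83052562. Loxl4 (ENSMUSG00000025185) is on the minus strand of chromosome 19 from 42593982 to 42612813. The exons of Loxl3 overlap those of Htra2, a mitochondrial protease gene on the opposite strand, by 535 bases. Loxl2 and Lox overlap annotated antisense genes, Gm27177 by 301 and AC161119.1 by 30 exonic bases, and these were not analysed here.

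Total counts were 24454801 to 28658826 per library. The fibroblast markers summed to 11951 to 12456 CPM in the GFP libraries and 10729 to 11225 CPM in the OEIRF7 libraries. CPM are counts scaled to the TMM-adjusted library size. By the test given below 5 of 9 markers were lower and 1 higher. Over all tested genes 29.9% were lower and 29.0% higher, and the marker counts that follow stand beside the same shares. Of these 9 markers 5 (Col1a1, Col1a2, Dcn, Lum and Postn) also stand on the lists of lysyl oxidase partners below. Of 8 cardiomyocyte markers 7 were below 1 CPM on average, and the list summed to 10.4 to 14.0 CPM with GFP and 8.39 to 10.2 CPM with OEIRF7. Of its 2 tested markers 1 was lower, Tnnt2, with means of 11.3 and 7.78 CPM. Markers of other heart cells were present at lower levels. The 6 macrophage markers summed to 267 to 317 CPM with GFP and 324 to 362 CPM with OEIRF7, and 3 of them were higher. Most of this sum was Lyz2, with means of 202 and 235 CPM. The 6 endothelial markers summed to 208 to 220 and 207 to 235 CPM (2 higher and 1 lower), the 6 mural markers to 68.9 to 76.0 and 79.0 to 98.8 CPM (2 higher and 2 lower), and the 5 epicardial markers to 72.4 to 88.6 and 58.3 to 65.8 CPM (2 higher and 1 lower). Their part in the results below was not tested, and in these bulk libraries a change in the share of a cell type and a change in RNA per cell cannot be told apart. The targeted gene, counted as mouse Irf7, had 92.0 to 147 CPM in the GFP libraries and 14.5 to 16.4 CPM in the libraries labelled OEIRF7, so it was lower under the overexpression label. The vector listed carries human IRF7, for which no count was analysed here, and the labels could therefore not be checked by this gene. Every direction below is that of the libraries labelled OEIRF7 against those labelled GFP.

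The family was abundant, and Lox led it. Per length, on the FPKM scale (fragments scaled to transcript length and library size), Lox had a level of 872 ± 18.5 FPKM in the GFP libraries and 957 ± 32.6 FPKM in the OEIRF7 libraries (SD, n = 4 each), above 99.7% of the tested genes in either group. Loxl2 followed with 354 ± 9.88 and 318 ± 9.47 FPKM, and Loxl1 with 166 ± 5.90 and 175 ± 5.84 FPKM (SD, n = 4). These 3 levels did not overlap in any group. Loxl3 and Loxl4, at 45.6 ± 2.82 and 44.7 ± 5.20 FPKM (SD, n = 4), could not be ordered in the GFP libraries, where their ranges overlapped. In the OEIRF7 libraries Loxl4 was at 59.1 ± 13.4 FPKM and Loxl3 at 30.5 ± 3.29 FPKM (SD, n = 4), and every library had more Loxl4 than any had Loxl3.

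The summed FPKM of the 5 members was 1482 ± 23.9 with GFP and 1540 ± 27.4 with OEIRF7 (SD, n = 4). The ranges, 1449 to 1502 and 1501 to 1564, overlapped through GFP replicate 2 and OEIRF7 replicate 3, and the sum was not tested. Within that sum Lox took 58.5% to 59.4% in the GFP libraries and 60.7% to 63.7% in the OEIRF7 libraries. The share of Loxl2 was 23.6% to 24.4% against 20.2% to 21.3%, and that of Loxl3 was 2.92% to 3.21% against 1.73% to 2.16%. For these 3 members the shares of the groups did not overlap, where 53.8% of all tested genes did not overlap in log2 CPM. The shares are parts of the same sum, so their shifts are not separate results. The share of Loxl1, 10.6% to 11.7% against 10.9% to 11.7%, and that of Loxl4, 2.50% to 3.44% against 3.19% to 5.26%, overlapped.

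**Figure D1:**
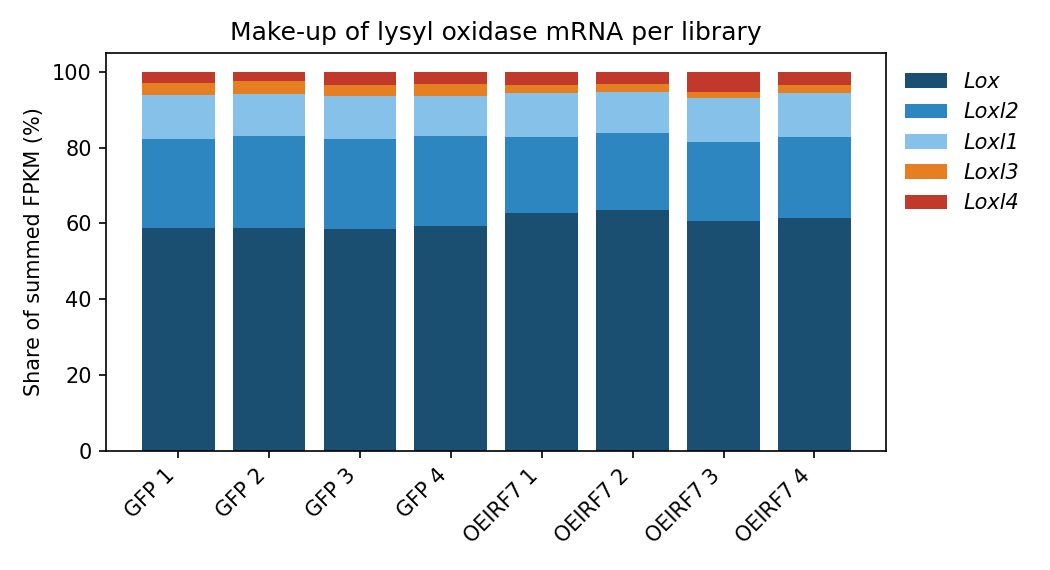
Each bar is 1 library and its colours are the shares (%) of the 5 genes in their summed FPKM. The Lox share is larger (60.7% to 63.7%) in the 4 OEIRF7 libraries than in the 4 GFP libraries (58.5% to 59.4%), and the Loxl2 and Loxl3 shares are smaller.

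Compared with the GFP libraries, Loxl3 and Loxl2 fell and Lox and Loxl4 rose in the OEIRF7 libraries, while Loxl1 did not pass the test. The groups were compared with edgeR's quasi-likelihood test with Benjamini-Hochberg adjustment over all tested genes, and an adjusted p under 0.05 was the threshold. The members thus gave 2 higher, 2 lower and 1 not called, in a comparison where 58.9% of all tested genes passed, 29.0% higher and 29.9% lower. The share of members called cannot be set apart from this background, and the results below are about each gene's direction and size. The groups did not overlap in CPM for 3 members (Lox, Loxl2 and Loxl3), where 53.8% of all tested genes did not overlap.

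Loxl3, which cross-links collagen and is known from cartilage and muscle attachment, changed most. It had 183, 199, 175 and 197 CPM in the GFP libraries, replicates 1 to 4, and 125, 127, 106 and 137 CPM in the OEIRF7 libraries. The groups did not overlap, and the gap between them was wider than the range of either group. Loxl3 fell by 0.61 on the log2 scale (SE 0.065, 95% interval -0.748 to -0.470, edgeR adjusted p = 1.4e-06, exact permutation test on log2 CPM, two-sided, p = 0.0286, the smallest that 4 against 4 allow), to 0.656 of the GFP level. It was the single member past the thresholds of the study's methods, an unadjusted p under 0.05 with a fold change over 1.5 or under 0.66, which 19.0% of tested genes passed. Its fold change lies close to that line, and it was past it in 10 of 16 alternative analyses (folds from 0.632 to 0.687). Among the libraries left out in turn, it was not past it without GFP replicate 2 (0.667), GFP replicate 4 (0.665) or OEIRF7 replicate 3 (0.687). Htra2, which overlaps it on the other strand, had at most 1190 counts, against 2702 to 5178 for Loxl3, and fell by 0.29 on the log2 scale (edgeR adjusted p = 0.00069). Whether the counting used strand is not given in the sources used here.

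Loxl2, which cross-links type IV collagen of basement membranes and fibrillar collagen, fell by less. It had 1826, 1897, 1792 and 1851 CPM in the GFP libraries and 1560, 1563, 1552 and 1649 CPM in the OEIRF7 libraries, without overlap. The log2 fold change was -0.22 (SE 0.0285, 95% interval -0.281 to -0.159, edgeR adjusted p = 1e-05, exact two-sided permutation test, p = 0.0286), which is a fold of 0.859. A change of this size is common here, as 55.3% of the tested genes had a larger log2 fold change in size, against 19.4% for Loxl3.

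Lox, the founding member, which cross-links fibrillar collagen, rose by a small amount. It had 4111, 4152, 3988 and 4203 CPM in the GFP libraries and 4442, 4548, 4248 and 4459 CPM in the OEIRF7 libraries. The lowest OEIRF7 value, in replicate 3, was just above the highest GFP value. The log2 fold change was 0.11 (SE 0.0263, 95% interval 0.049 to 0.161, edgeR adjusted p = 0.0032, exact two-sided permutation test, p = 0.0286), a rise of 7.56%. With at least 98443 counts per library, counting error was small, 0.319% as a coefficient of variation at most, and the observed coefficients of variation were 2.23% and 2.86%.

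Loxl4, a member whose known activity is also on collagen, rose in the fit over all genes, but its groups overlapped. It had 158, 136, 178 and 165 CPM in the GFP libraries and 193, 173, 282 and 190 CPM in the OEIRF7 libraries. The OEIRF7 value of replicate 3 stood well above the others, and replicate 2 of OEIRF7 was below replicate 3 of GFP. Each OEIRF7 library had more Loxl4 than the GFP library of the same number, but whether the numbers mark pairs was not tested. The log2 fold change was 0.40 (SE 0.121, 95% interval 0.140 to 0.659, edgeR adjusted p = 0.011), whereas the exact permutation test gave p = 0.0571. Without OEIRF7 replicate 3 the log2 fold change was 0.22 (edgeR adjusted p = 0.010), and with DESeq2 on all libraries it was 0.40 with an adjusted p of 0.067. The adjusted p ranged from 2.5e-05 (edgeR with the replicate number as a block) to 0.067 (DESeq2) over 16 alternatives. The size of the rise thus depended on 1 library, which also had the lowest Lox, Loxl2 and Loxl3 of its group. That library differed more from its replicates over all genes (chi-square per degree of freedom 7.06 to 9.94) than the other 3 OEIRF7 libraries did from each other (2.90 to 4.55).

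Loxl1, which acts on elastin and is needed to maintain elastic fibres, had 576, 554, 549 and 529 CPM in the GFP libraries and 578, 551, 568 and 597 CPM in the OEIRF7 libraries, with overlapping groups. The log2 fold change was 0.06 (SE 0.0343, edgeR adjusted p = 0.18, exact two-sided permutation test, p = 0.2). Its 95% interval, -0.018 to 0.129, allows folds from 0.987 to 1.09, so a change beyond this range in either direction was not seen, and a smaller change cannot be told from none. Over 16 alternatives the adjusted p of Loxl1 ranged from 0.051 (edgeR, no scaling beyond library size) to 0.46 (edgeR without GFP replicate 4).

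**Figure D2:**
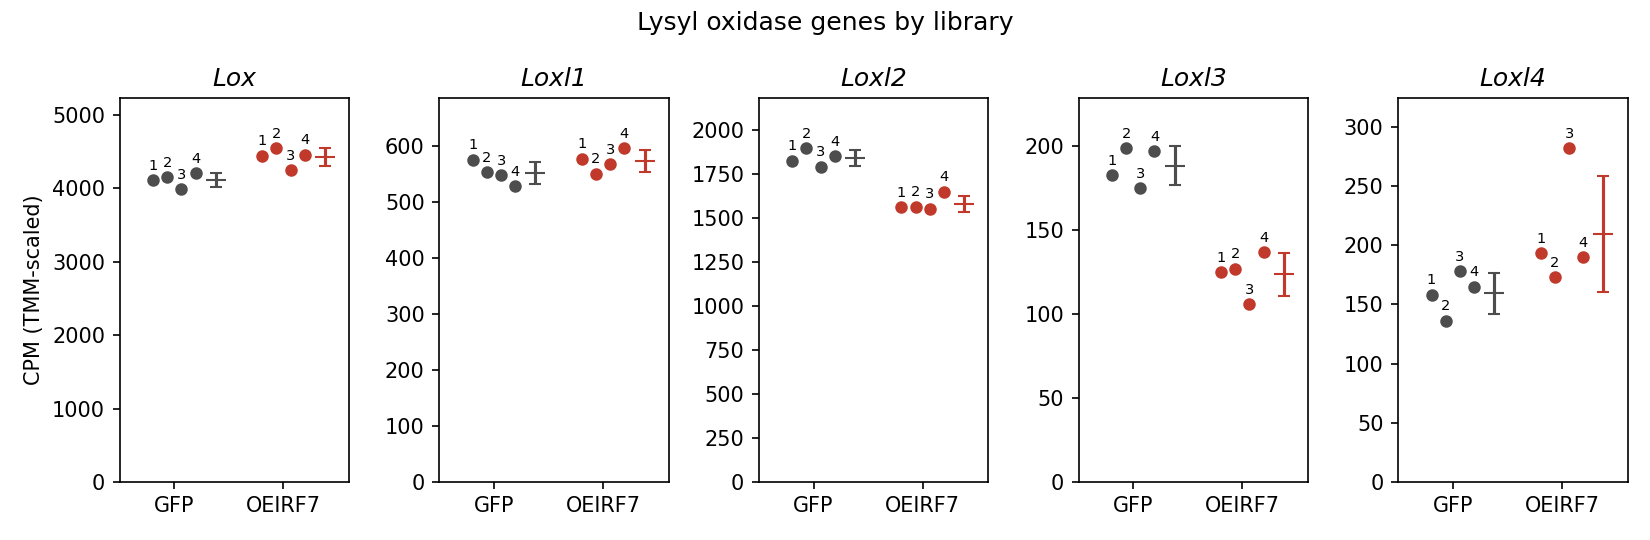
CPM (vertical axis, from 0) of the 5 genes in each library, with the replicate number above each point and the mean ± SD of the 4 libraries at the side. The groups part for Lox, Loxl2 and Loxl3 and overlap for Loxl1 and Loxl4, where OEIRF7 replicate 3 stands at 282 CPM.

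**Figure D3:**
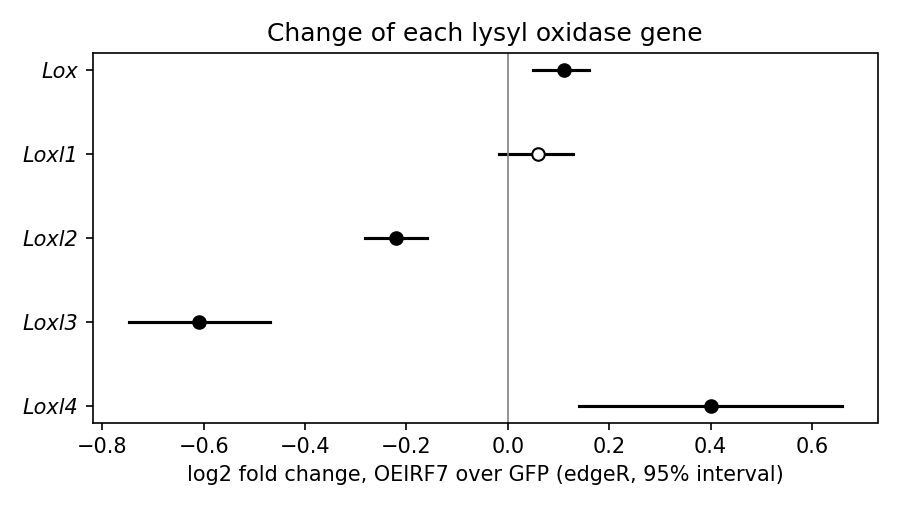
Log2 fold change of OEIRF7 over GFP with its 95% interval from edgeR. Filled points passed an adjusted p of 0.05. Loxl3 (-0.61) and Loxl2 (-0.22) lie below 0, Lox (0.11) and Loxl4 (0.40) above it, and the interval of Loxl1 spans 0.

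The members were also set against each other. The log2 ratio of each of the 10 pairs was compared between groups within libraries, which does not depend on library scaling or gene length. In 7 pairs the groups did not overlap and the exact two-sided permutation test gave p = 0.0286, the smallest possible (adjusted p = 0.0408 over the 10 pairs, exact test). Over all pairs of tested genes 53.0% did not overlap, and the 10 pairs draw on the same 5 genes, so the count of pairs is not a result about the family and the sizes of the shifts are given as values. The largest shift was that of Loxl3 against Loxl4, whose log2 ratio was 0.25 ± 0.237 with GFP and -0.74 ± 0.454 with OEIRF7 (SD, n = 4). The difference was -0.99, and -0.77 without OEIRF7 replicate 3. The ratio of Lox to Loxl3 moved by 0.72 and that of Loxl1 to Loxl3 by 0.67. Lox and Loxl1 each shifted against Loxl2, by 0.32 and 0.28, and Loxl2 shifted against Loxl3 by 0.39 and against Loxl4 by -0.60. Without that library the differences of Lox to Loxl4 and of Loxl1 to Loxl4 were -0.10 and -0.17, and that of Loxl2 to Loxl4 was -0.44. The ratios of Lox to Loxl1, Lox to Loxl4 and Loxl1 to Loxl4 did not pass (differences of 0.05, -0.28 and -0.32, exact permutation p = 0.4, 0.286 and 0.114).

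The genes whose profile over the 8 libraries was most like each member were sought among the 10319 other tested genes above 5 CPM, by the root mean square difference of log2 CPM after each gene was centred on its own mean. Nearest to Lox were Atad1 and Hnrnph1 (0.022 and 0.023), and nearest to Loxl1 were Cyb5r3 and Dnpep (0.017 and 0.020). For Loxl2 they were Hp1bp3 and Rpl3 (0.016 and 0.019), for Loxl3 Hykk and Smc4 (0.040 and 0.047), and for Loxl4 Syt17 and Hsph1 (0.076 and 0.078). None of these 10 genes is a member of the family or of the lists that follow, and no member was among the nearest genes of another.

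Genes around the lysyl oxidases were taken as 7 lists. Of 53 tested genes on them 14 were higher and 24 lower at an adjusted p under 0.05, against 29.0% and 29.9% of all tested genes. The median log2 fold change was -0.16, where that of all tested genes was 0.002. The counts of each list below stand beside these same shares, and no list was tested as a set.

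Among the substrates, the collagens were mostly lower. Of 9 tested chains 7 fell and 1 rose (median log2 fold change -0.51). Col11a1 and Col4a1, a minor fibrillar and a basement membrane chain, fell by 0.73 each, Col5a1 fell by 0.55 and Col3a1 fell by 0.53 on the log2 scale (edgeR adjusted p from 2.3e-10 to 6.5e-07). Col1a1 fell by 0.16, from 4561 ± 140 to 4070 ± 187 CPM (SD, n = 4 each), and Col1a2 had a log2 fold change of -0.05 (edgeR adjusted p = 0.10), and -0.07 without OEIRF7 replicate 4 (adjusted p = 0.028). Col5a3, a minor chain of type V collagen, rose by 1.71, from 17.6 ± 1.94 to 57.7 ± 3.67 CPM (SD, n = 4 each).

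Of 10 tested genes of elastin and its fibres 6 fell and 2 rose (median -0.19). Fbln5, the fibulin that tethers Loxl1 to elastin, fell by 1.05 (log2), with 493 ± 31.9 CPM against 238 ± 8.65 CPM (SD, n = 4 each, edgeR adjusted p = 1e-10), with Loxl1 itself not past the test. Efemp2, the fibulin that binds Lox and guides it to elastin, fell by 0.17, and its relative Efemp1 fell by 0.47. Mfap5, a microfibril protein, rose by 0.72. Eln, elastin itself, had a log2 fold change of -0.45 (edgeR adjusted p = 0.040), and this call was lost in 8 of 16 alternatives (adjusted p from 0.00018 to 0.19). Its log2 fold change was -0.24 without GFP replicate 2, and the call was also lost without GFP replicate 1, OEIRF7 replicate 3 or OEIRF7 replicate 4. Fbn2 and Mfap2 did not pass the filter on low counts.

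The genes on the list of propeptide processing and activation went both ways. Bmp1, the protease that cleaves the Lox propeptide, rose by 0.13 (log2, 357 ± 14.1 CPM against 391 ± 12.8 CPM, SD, n = 4 each, edgeR adjusted p = 0.0065). Of the genes for enhancers of its cleavage of procollagen, Pcolce fell by 0.42 and Pcolce2 rose by 0.43. Adamts2, a second protease that cleaves Lox, fell by 0.40. Postn and Fn1, matrix proteins that hold Bmp1 and Lox together, fell by 0.38 and 0.16, and Thbs1, a matricellular protein that binds lysyl oxidase precursors, rose by 0.46. In all 3 rose, 4 fell and 2 did not pass of 9 tested, with Tll2 below the filter. Over all tested genes 29.0% were higher and 29.9% lower.

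Copper delivery changed little for most genes. Of 10 tested genes 3 rose, none fell and 7 did not pass (median 0.07), against 29.0% higher and 29.9% lower over all tested genes. Slc31a1, the copper importer, and Atp7a, the pump that loads copper into lysyl oxidases in the secretory pathway, had log2 fold changes of 0.05 and 0.08 (edgeR adjusted p = 0.25 and 0.22). Atp7b, the related pump known from liver, rose by 1.87 from a low level, with 1.56 to 2.75 CPM in the GFP libraries and 5.14 to 10.7 CPM in the OEIRF7 libraries, and by 0.67 on the compressed log2(FPKM + 1) scale. Mt1, a metallothionein that binds copper and zinc, had a log2 fold change of 0.14 (edgeR adjusted p = 0.036), a call that was lost when any of 6 libraries was left out (GFP replicate 1, 2 or 4, or OEIRF7 replicate 1, 2 or 4). The remaining gene that rose was Steap4, a metal reductase with at most 1.55 CPM in any library.

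The enzymes that set the kind of cross-link by hydroxylating collagen lysines moved in opposite directions. Plod2, which hydroxylates the telopeptide lysines from which the stable pyridinoline cross-links form, fell by 0.36 (log2), with 1372 ± 32.7 CPM against 1072 ± 14.3 CPM (SD, n = 4 each, edgeR adjusted p = 3.5e-08). Fkbp10, a chaperone that works with Plod2, fell by 0.17. Plod1, which hydroxylates lysines of the collagen helix, rose by 0.50, while P3h4, known from a complex with Plod1, fell by 0.22. Plod3 rose by 0.19, and Colgalt1, which adds galactose to hydroxylysine, rose by 0.30. Of 7 tested genes 3 rose, 3 fell and 1 did not pass, where 29.0% of all tested genes were higher and 29.9% lower.

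Of 6 tested matrix proteins that bind collagen fibrils near lysyl oxidase, 3 fell and 2 rose. The shares of all tested genes were 29.9% lower and 29.0% higher. Fmod, fibromodulin, which binds Lox and directs it to collagen, fell by 2.14 (log2), with 76.8 ± 13.6 CPM against 17.5 ± 1.40 CPM (SD, n = 4 each, edgeR adjusted p = 5.4e-10). Tnxb, a tenascin that binds collagen, rose by 1.55, and Bgn, biglycan, fell by 0.28. Lum, lumican, had a log2 fold change of -0.35 (edgeR adjusted p = 0.031), lost in 6 of 16 alternatives, 4 of them without GFP replicate 1 or 2 or OEIRF7 replicate 3 or 4, and it was -0.21 without GFP replicate 2. The other copper amine oxidases, which use a different quinone cofactor, were low. Aoc3 had 1.48 ± 0.348 and 0.412 ± 0.226 CPM (SD, n = 4 each, edgeR adjusted p = 0.00037), Aoc2 was at 2.57 and 2.04 CPM (edgeR adjusted p = 0.19), and Aoc1 did not pass the filter.

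**Figure D4:**
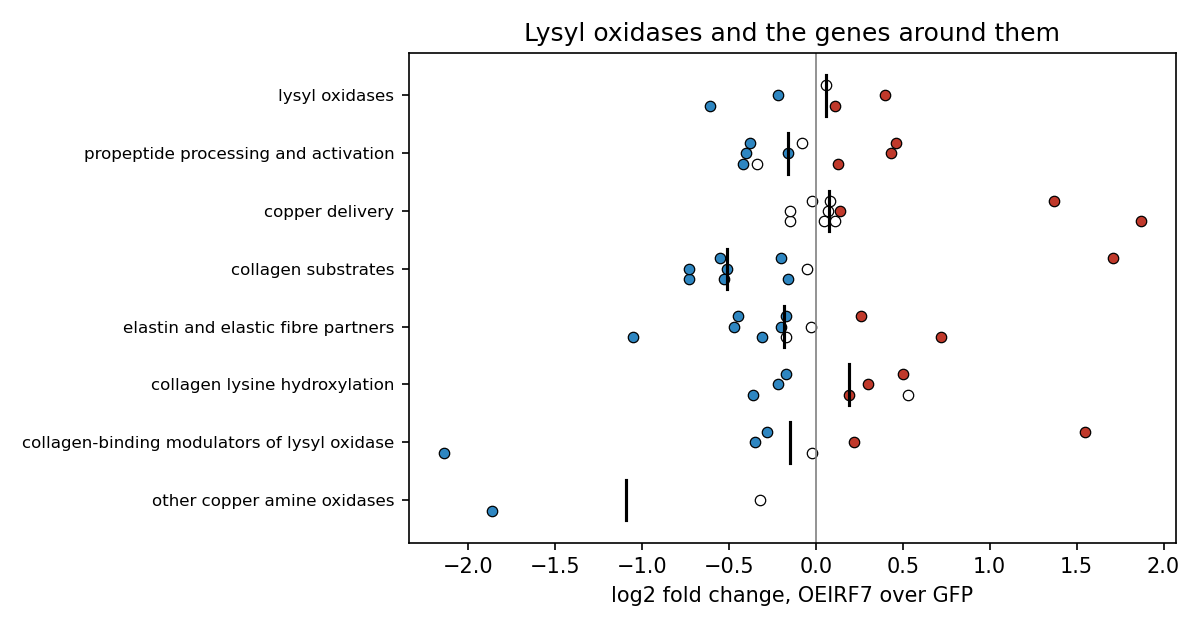
Each point is 1 tested gene at its log2 fold change of OEIRF7 over GFP, red where higher and blue where lower at an adjusted p under 0.05 and white where not called. The vertical tick is the median of the list. The 5 lysyl oxidases lie on both sides of 0, and 7 of 9 collagen chains lie to its left in blue.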

How the data were processed

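The 8 libraries were 4 GFP and 4 OEIRF7, grouped and numbered by their titles. The authors trimmed reads of 150 bases with Trimmomatic, mapped them to GRCm38 with HISAT2, obtained raw counts per gene with HTSeq-count and FPKM with Cufflinks, and deposited both. Their group means, a log2 ratio, p-values and FDR were also deposited by the authors and were not used. The labels name a SMARTER library kit and the study's methods a stranded TruSeq kit, and tool versions are not given in the sources used here.

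The deposited counts went into edgeR 4.0.16 under R 4.3.3 (filterByExpr, TMM, glmQLFit, glmQLFTest, no covariates), with Benjamini-Hochberg adjustment over 13533 genes. The SE is the log2 fold change divided by the root of the F statistic. Log2 CPM used a prior count of 2. Permutation tests covered all 70 arrangements (scipy 1.17.1). FPKM served for levels between genes and, as log2 values, for limma 3.58.1 (pseudocounts 1 and 0.1, mean above 0.1 FPKM). Other alternatives were DESeq2 1.42.0, other scalings and filters, the replicate block and leaving out each library. The edgeR, DESeq2, limma (pseudocount 1) and block fits were tested on simulated data. The changes simulated were larger than that of any member, so these runs do not bear on calls of the size seen here. Of the 22274 identifiers, 22219 were in GENCODE M21, which gave names and coordinates. Genes were named by rule: the 5 members, selected partners, up to 4 called genes per list with the largest change and a mean above 1 CPM, and the 2 nearest profiles per member. Steap4, Fkbp10, Aoc2, Aoc3 and Htra2, and the cell type markers Tnnt2 and Lyz2, fall outside this rule and were named after their values were seen. The members and lists were chosen with earlier results of these data known.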

Additional observations from a re-analysis of the deposited data

Results flagged for a closer look

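In groups of 4, a library was set apart where its gap to the nearest other library took up more of the range of the group than Dixon's 95% critical value allows. The 5 genes were examined in both groups on the CPM and the FPKM scale, 20 groups of values in all, of which chance sets apart about 1 in 20. Loxl2 in OEIRF7 replicate 4 stood apart from the other 3 OEIRF7 libraries on both scales, with 1649 CPM against 1552 to 1563 CPM and 332 FPKM against 313 to 314 FPKM. It was the library nearest to the GFP group, which began at 1792 CPM. Loxl4 in OEIRF7 replicate 3 stood apart on the FPKM scale, with 79.0 FPKM against 49.5 to 54.4 FPKM, and not on the CPM scale.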

How the results depend on the processing

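Of 80 recomputed log2 fold changes of the 5 members, 79 kept their direction and their side of the threshold. The exception was Loxl4 with DESeq2, at 0.40 (adjusted p = 0.067), and the cause was not tested. Over the alternatives the log2 fold change ranged from 0.09 to 0.13 for Lox, 0.03 to 0.08 for Loxl1, -0.24 to -0.15 for Loxl2, -0.66 to -0.54 for Loxl3 and 0.22 to 0.48 for Loxl4. No ratio between members changed its call with FPKM in place of CPM. Leaving out 1 library leaves 4 against 3, where the exact test cannot go below 0.0571, so ratios were then compared as values, and none changed its sign.

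With limma on log2(FPKM + 1), 1402 genes were past the thresholds of the methods, against 2576, on a scale that compresses low values. By CPM per kilobase of annotated exon, the shares of the family were 59.5% for Lox, 2.83% for Loxl3 and 2.61% for Loxl4 in the GFP libraries and 11.8% for Loxl1 and 19.9% for Loxl2 in the OEIRF7 libraries, in each case off the FPKM share by more than 1 SD.

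The replicate numbers were not taken as pairs. Deviations of same-numbered libraries correlated at 0.08 to 0.14 and those of all other pairs at -0.16 to 0.05, so each library correlated best with its own number. Whether the numbers mark pairs was not tested, and the permutation tests used no pairing. With the replicate block 4057 genes were higher and 4154 lower, against 3924 and 4045, and no member changed its call. The edgeR adjusted p of Loxl4 was 2.5e-05 with the block and 0.011 without it. The lowest count of any member was 2702 (Loxl3), a counting error of 1.92%, which is smaller than the spread between its libraries (6.22% and 10.5%).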
